A study of Eohaustorius estuarius with 16 samples.

Results

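Among 8507 probes on a custom array for the estuarine amphipod Eohaustorius estuarius, 65 were at least 2-fold higher in the mean of exposed amphipods, with every exposed array above the control median. A member had to be well above background on at least 8 of 15 arrays, to be higher by at least 1 on the log2 scale in the mean of 8 cyfluthrin arrays than in the mean of 7 controls, and to lie above the control median on all 8 cyfluthrin arrays. These 65 were 0.909% of the 7151 probes that met the detection criterion. Because the same levels chose the members, every difference between exposed and control arrays given here for them is a description and carries no test. Each probe stands for a different assembled contig, and the deposited files pair contigs with numbers but not with gene names. Members are therefore given by contig number, and no role can be stated for any of them.

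The arrays came from 1 of 6 laboratories that worked on the same RNA extracts, and arrays from the remaining laboratories were not analysed here. Both groups were whole-body RNA of E. estuarius, a burrowing crustacean of sandy sediments that is kept in sediment toxicity tests. The 8 solvent controls spent 10 days in sediment that had received only the solvent, and the 8 exposed extracts came from animals kept for the same time in sediment with cyfluthrin at a nominal 1.6 µg/kg. The labels give no age, sex or strain and do not say how many animals went into an extract, so the spread between arrays may be partly technical. In whole-body RNA, a change in the number of cells of a type cannot be told apart from a change in RNA per cell.

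Cyfluthrin is a pyrethroid, a synthetic relative of the pyrethrins of chrysanthemum flowers. Pyrethroids hold the voltage-gated sodium channels of nerve membranes open for longer than usual, and nerves then fire repeatedly. In arthropods the compounds are broken down mainly by esterases and cytochrome P450 enzymes, and greater expression of such enzymes is a known route to resistance in insects. Crustaceans are among the most sensitive animals to this class, which binds to sediment and so reaches burrowing species.

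One array went against its label. The array labelled control replicate 3 carried these transcripts at the level of the exposed arrays, and the rule that chose the members left it out. Values are given against the other 7 controls first and against all 8 controls beside them. Whether that array holds control RNA was not tested, and what the values against 8 controls measure depends on it. Across the 16 arrays the 75th percentile of the spot intensity ran from 165 to 310, and the array labelled control replicate 3 had the lowest. Per array, 6675 to 7422 probes were well above background, and 0 spots were saturated. A level below is the log2 of a probe's intensity relative to that array's 75th percentile, so that 0 is the 75th percentile and each unit is a doubling. Levels of different probes depend on how each probe binds and are not set against each other. How precise each value is depends on the number of arrays.

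The 65 transcripts were higher in exposed amphipods by a median of 2.70 on the log2 scale, which is 6.50-fold, and single members ran from 2.06-fold to a fitted 16.4-fold. Among the 47 members well above background on all 7 controls the range was 2.06-fold to 13.2-fold. With the array labelled control replicate 3 counted as a control, the median was 2.33, or 5.02-fold. Over all 7151 tested probes the median difference was 0.012. There were 28 members with a fitted difference of at least 8-fold, 40 with at least 4-fold and 25 with less than 4-fold. At 59 of the 65 all 8 exposed arrays lay above all 7 controls, an arrangement found at 1.9% of tested probes and one that the choice of members makes likely. The 6 members with overlapping groups were on contigs 6446, 1648, 2433, 7847, 6566 and 2886. At the other 59 the gap between the highest control and the lowest exposed array ran from 0.064 to 2.20.

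**Figure D1:**
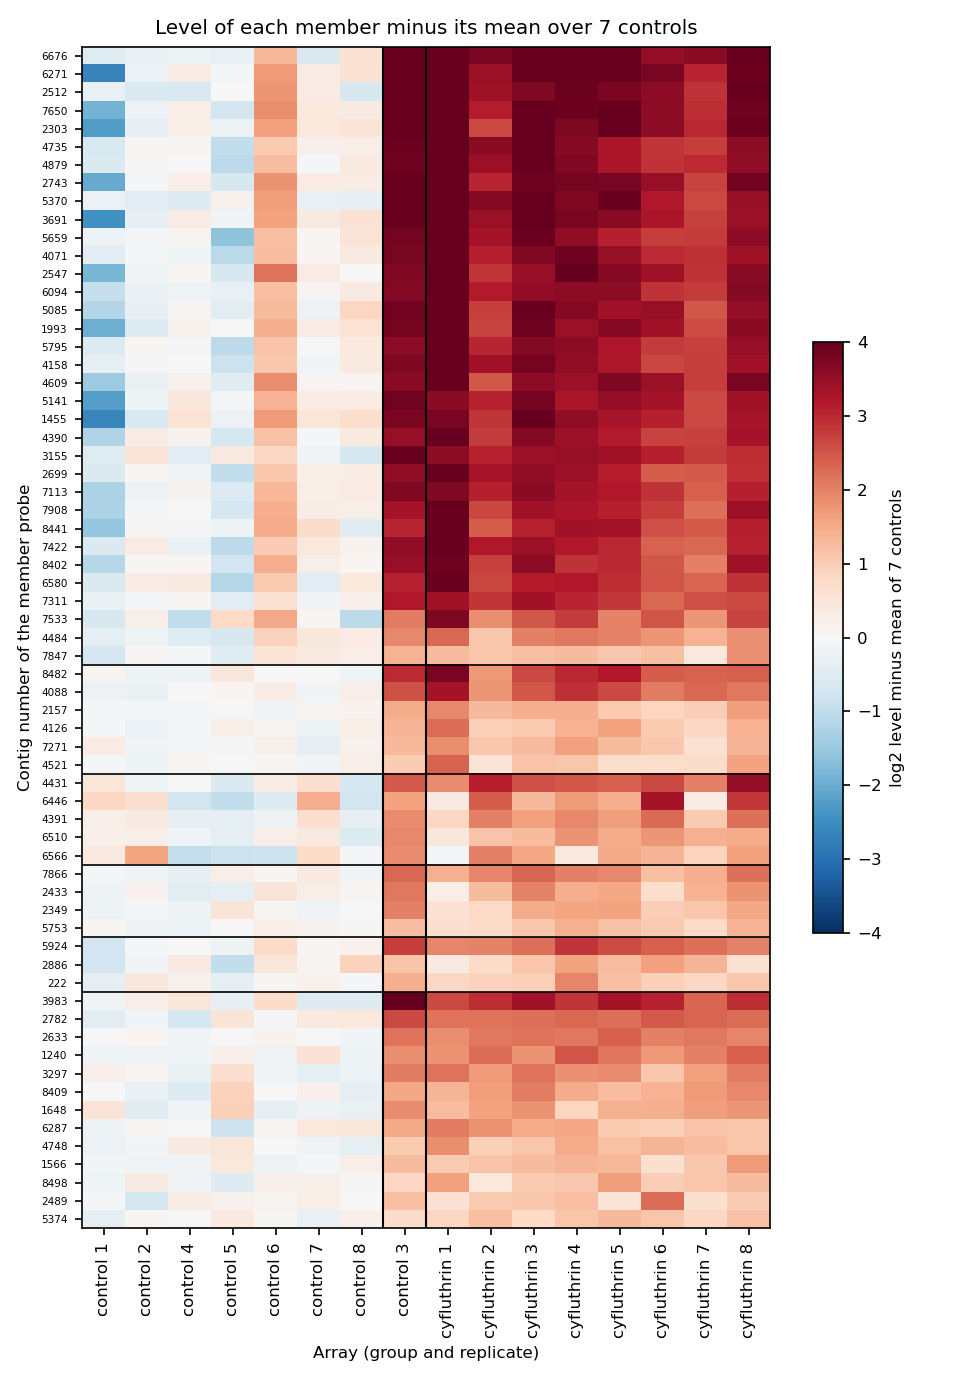
Level of each of the 65 members (rows, by contig number) on each of 16 arrays (columns), drawn as the log2 level minus that member's mean over 7 controls and capped at 4 in colour. Horizontal lines separate 5 groups of co-varying members from 13 members in groups of 1 or 2, and the column labelled control 3 has the colours of the exposed arrays.

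Limma, fitted over all tested probes, called 61 of the 65 as rising with all 16 arrays and 64 with 15 arrays, at an adjusted p under 0.05. The shares among all tested probes were 3.45% and 6.59%. As the members were chosen on this same contrast, nothing is read from these counts. The members not called with 16 arrays were on contigs 6446, 2433, 6566 and 2886, and with 15 arrays contig 6566 was not called. These 4 were 2.12-fold to 3.29-fold higher against 7 controls, and their groups overlapped.

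Detection differed between the groups at some members. All 65 were well above background on the array labelled control replicate 3, and 64 were so on all 8 exposed arrays. On the 7 other controls, 47 members were well above background on every array, 13 on some and 5 on 0. The detection criterion could admit those 5 only if all 8 exposed arrays measured them. Members were also chosen for being higher in exposed arrays. The difference in detection between the 7 controls and the 8 exposed arrays is thus partly fixed by the rule, and nothing is read from it. Where no control array measured a transcript, the fold is only a bound. It was at least 4.47-fold for contig 2512, at least 3.97-fold for contig 5370 and at least 3.45-fold for contig 3155. For contigs 8482 and 2782 it was at least 1.72-fold and at least 1.74-fold. These bounds hold for the background-subtracted intensity, and with other treatments of background the differences were smaller. Each bound sets the mean of the exposed arrays against the weakest spot marked as well above background on each control array, or the probe's own signal where that was higher. With these 5 at their bounds the median of the 65 was 4.84-fold, and 25 instead of 28 members reached 8-fold. Among the 47 members measured on all 7 controls the median was 5.45-fold, and 18 reached 8-fold.

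The 10 members with the largest differences among those measured on all 15 arrays were all between 10.7-fold and 13.2-fold higher. On contig 7650 (probe CUST_2953_PI425439775) the levels of 7 controls had a lowest value of -3.83, a median of -1.70 and a highest value of -0.10. The 8 exposed arrays had a lowest value of 1.02, a median of 1.95 and a highest value of 2.32. The groups did not overlap, the lowest control was replicate 1, and the highest was replicate 6. The means were -1.95 ± 1.15 and 1.77 ± 0.46 (SD, n = 7 and 8), and the difference of 3.73 ± 0.46 (SE) is 13.2-fold. Against 8 controls the fold was 9.33, because the array labelled control replicate 3 stood at 2.08.

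Contig 2743 (CUST_2963_PI425439775) followed contig 7650 almost array by array. Its 7 controls ran from -3.89 over a median of -1.59 to -0.05, and its 8 exposed arrays from 0.84 over a median of 1.95 to 2.46. The same arrays were at the ends as for contig 7650, control replicates 1 and 6 and cyfluthrin replicates 7 and 1, with no overlap. Its difference of 3.62 ± 0.47 (SE) is 12.3-fold, and 8.64-fold against 8 controls. The deviations of both probes from their group means had a Pearson r of 0.992 over 15 arrays, the highest of all 2080 pairs of members.

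Contig 2303 (CUST_4529_PI425439775) was 12.6-fold higher, and 8.92-fold against 8 controls. Its controls ran from -3.62 over -1.16 to 0.26 and its exposed arrays from 1.24 over 2.44 to 2.94. Control replicate 1 was again far below the other controls and replicate 6 the highest of them. Contig 3691 (CUST_4941_PI425439380), 11.9-fold higher, ran from -3.62 over -0.90 to 0.41 in controls and from 1.53 over 2.32 to 3.03 in exposed arrays. Contig 1993 (CUST_1435_PI425439775), 10.7-fold higher, ran from -2.62 over -0.53 to 0.77 in controls and from 1.94 over 2.86 to 3.44 in exposed arrays. Contig 2547 (CUST_4879_PI425439775), 11.6-fold higher, ran from -4.39 over -2.53 to -0.39 in controls and from 0.30 over 0.997 to 1.85 in exposed arrays. In all 4 of these, control replicate 1 was the lowest control, control replicate 6 the highest, and the groups did not overlap. Against 8 controls their folds lay between 7.70 and 8.92.

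A second pattern among the 10 showed one exposed array far above the rest. On contig 4735 (CUST_4102_PI425439380) the 7 controls ran from -3.57 over -2.51 to -1.54 and the 8 exposed arrays from 0.17 over 1.02 to 2.95. Cyfluthrin replicate 1 alone held the value of 2.95, and the next exposed array was at 1.42. The means were -2.58 ± 0.65 and 1.08 ± 0.87 (SD, n = 7 and 8), a 12.6-fold difference of 3.66 ± 0.39 (SE) that became 8.97-fold against 8 controls. Contig 4879 (CUST_4103_PI425439380) had the same shape, with controls from -2.97 to -0.67 and exposed arrays from 0.98 to 3.26, and was 12.3-fold higher. On contig 4071 (CUST_1035_PI425439380) the controls ran from -1.69 to 0.63 and the exposed arrays from 2.30 to 4.24, an 11.6-fold difference. In these 3 the lowest control was replicate 5, not replicate 1.

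Contig 6094 (CUST_3798_PI425439380) kept nearly all of its difference when background was treated otherwise. Its 7 controls ran from 2.16 over 2.90 to 4.26 and its 8 exposed arrays from 5.87 over 6.63 to 7.70. Control replicate 6 was the highest control and cyfluthrin replicate 1 the highest exposed array, and the groups were 1.60 apart at their nearest. The means were 3.07 ± 0.66 and 6.55 ± 0.57 (SD, n = 7 and 8), an 11.2-fold difference of 3.48 ± 0.32 (SE), and 8.12-fold against 8 controls. With 50 intensity units added to every signal before the logarithm, which compresses weak signals, its difference was 3.42.

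**Figure D2:**
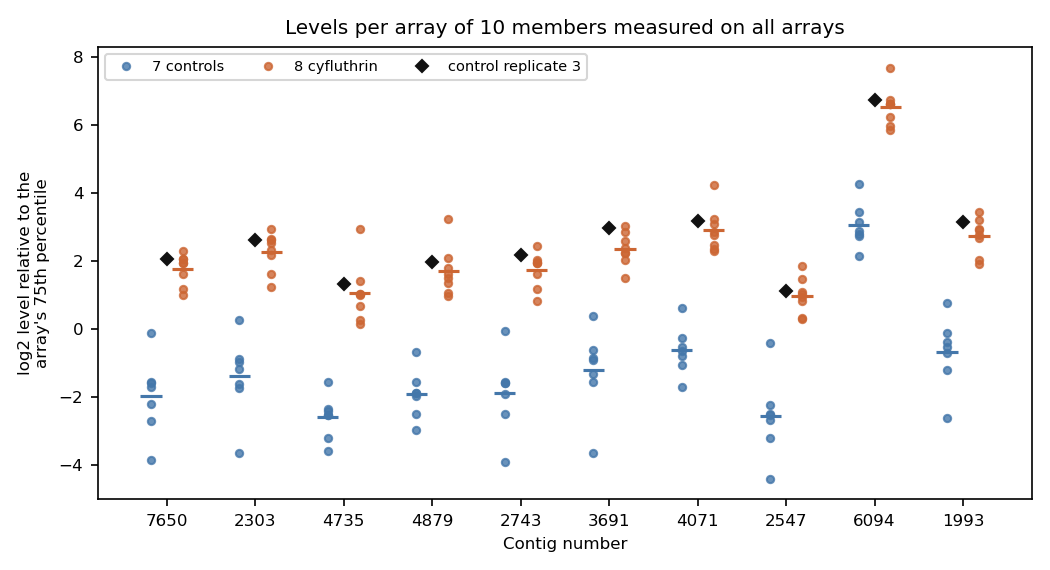
Log2 level relative to each array's 75th percentile (vertical axis) of the 10 members with the largest differences among those well above background on all 15 arrays (horizontal axis, contig number). Each point is 1 array and each bar a group mean of 7 controls (blue) or 8 exposed arrays (orange), and the black diamond is the array labelled control replicate 3, which lies within the orange points at all 10.

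The 3 members with larger fitted differences than these 10, on contigs 6676, 6271 and 2512, were not well above background on all 7 controls. On contig 6676 (CUST_1578_PI425439380) the 7 controls ran from -6.92 over -6.63 to -5.01 and the 8 exposed arrays from -2.81 over -2.32 to -1.56. The exposed arrays lay 2.20 above the highest control, and 2 of 7 controls were well above background. The fitted difference of 4.04, or 16.4-fold, thus rests on control signals that were mostly not above background. It was 1.06 with 50 added before the logarithm and 0.71 with normexp, another background correction. On contig 6271 (CUST_1494_PI425439771), well above background on 6 of 7 controls, the controls ran from -6.09 over -3.12 to -1.74 and the exposed arrays from -0.39 over 0.58 to 0.90. Control replicate 1 held the value of -6.09, and the next control was at -3.68. Its difference of 3.88 ± 0.53 (SE) is 14.7-fold, and 2.39 on the log2 scale with the offset.

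At 3 members with large fitted differences, exposed arrays and the array labelled control replicate 3 gave a measured signal but 0 of the 7 other controls did. The detection criterion could admit such members only if every exposed array measured them. On contig 2512 (CUST_1040_PI425439380) the exposed arrays ran from -3.82 over -2.98 to -1.92, on contig 5370 (CUST_4944_PI425439380) from -4.15 over -3.09 to -2.55, and on contig 3155 (CUST_4950_PI425439380) from -3.82 over -3.36 to -3.04. Their control levels, with means of -6.72, -6.78 and -6.61, were not well above background on any of the 7 arrays. With the offset of 50 their differences were 0.80, 0.73 and 0.64, and with normexp 0.59, 0.45 and 0.38. All of these were below the 1 that the rule required. Cyfluthrin replicate 1 was the highest exposed array and replicate 7 the lowest for all 3.

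The members fell into a large group that varied together, smaller groups of 6, 5, 4 and 3 that each did so, and 13 other members. When members were clustered on their deviations from the group means over 15 arrays (average linkage of 1 minus Pearson's r, separated at r of 0.5), 34 of the 65 formed a single group. The threshold was chosen after the values were seen, and the largest group held 30, 30, 36 and 43 members at thresholds of 0.7, 0.6, 0.4 and 0.3. The median r over its 561 pairs was 0.76, against 0.048 over pairs of the other 31 members and 0.034 over pairs of all tested probes. Taken over the 8 exposed arrays alone the median r of the 34 was 0.82, and over the 7 controls alone 0.83. These points share their arrays and the scaling of each array, and the members were grouped by the same correlations, so the values describe the group and do not test it.

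All 28 members with a fitted difference of at least 8-fold belonged to these 34 co-varying members. The median difference of the 34 was 3.42, or 10.7-fold, within a range of 2.25-fold to 16.4-fold, and it was 7.73-fold against 8 controls. With the members that no control measured at their bounds the median was 10.3-fold. At 33 of the 34 the exposed and control arrays did not overlap. The exception was contig 7847, the smallest difference of the group. All 10 of the members described by their levels above belonged to the 34, and so did contigs 6676, 6271, 2512, 5370 and 3155.

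The other 31 members differed by a median of 1.35, or 2.55-fold, and by 2.22-fold against 8 controls. Their largest difference was the 7.65-fold of contig 3983, and 23 of the 31 differed by less than 4-fold. The groups did not overlap at 26, and the 5 with overlap were 2.12-fold to 3.29-fold higher.

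The array means of the 34 and of the 31 had different shapes. Over the 34, the 7 controls averaged -2.91 ± 0.75 and the 8 exposed arrays 0.37 ± 0.50 (SD). Control replicate 1 was lowest at -4.02, control replicates 2, 4, 5, 7 and 8 stood at -3.02, -2.92, -3.42, -2.76 and -2.69, and control replicate 6 at -1.57. The exposed arrays ran from -0.35 in cyfluthrin replicate 7 to 1.29 in cyfluthrin replicate 1. Over the other 31, the 7 controls ran from -2.14 to -1.86 and the exposed arrays from -0.63 to -0.21. Control replicate 6 stood at -1.93 there, within the other controls, and cyfluthrin replicate 1 at -0.51, within the other exposed arrays. For cyfluthrin replicate 1 this mean joins smaller groups that departed in opposite directions. Its level minus that of the other 7 exposed arrays averaged 1.01, -1.15, -0.69 and -0.50 in the groups of 6, 5, 4 and 3. Over the last 13 members it averaged -0.01.

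**Figure D3:**
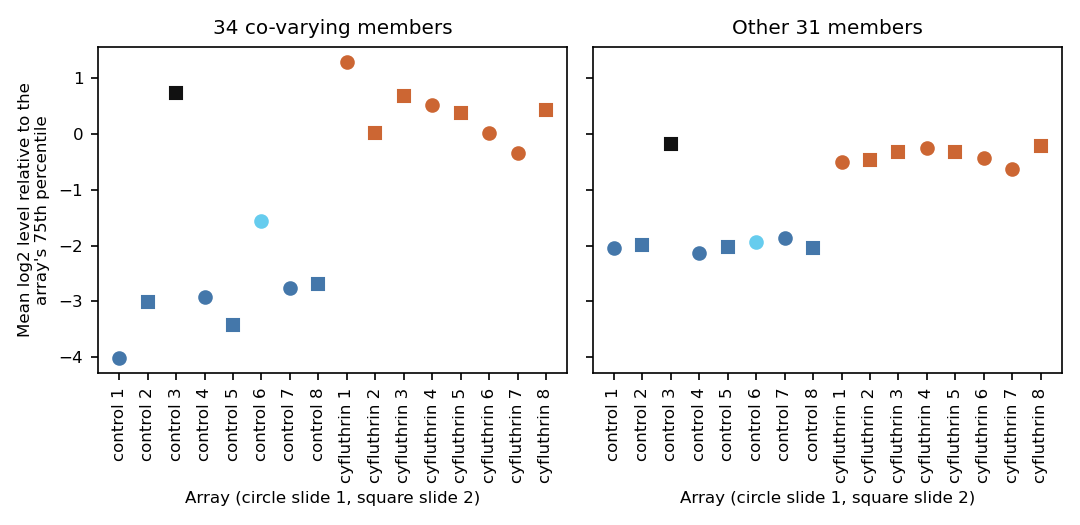
Mean log2 level relative to the array's 75th percentile (vertical axis) on each array (horizontal axis) of the 34 co-varying members (left) and the other 31 members (right). Blue marks controls, light blue control replicate 6, black the array labelled control replicate 3 and orange the exposed arrays, with circles for slide 1 and squares for slide 2; control replicate 6 stands at -1.57 on the left, above the 6 blue controls, and at -1.93 on the right, among them.

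Control replicate 6 was the highest of the 7 controls at all 34 co-varying members, against 11.3% of all tested probes and 6 of the other 31 members. Of the 34, 23 were well above background on all 7 controls, 8 on some and 3 on 0, and control ranks at the last 11 rest partly on signals near background. Control replicate 6 was also the highest at all 23 of the first. It exceeded the mean of the other 6 controls by a median of 1.54, or 2.90-fold. That placed it a median of 45.7% of the way from the other 6 controls to the exposed mean, with a range of 23.5% to 64.8% over the 34. Over the 23 these medians were 1.45, or 2.74-fold, and 45.2%. At 33 of the 34 it was still below the lowest exposed array. Over the other 31 members it stood a median of 6.46% of the way. Because members were grouped by how they vary between arrays, a shared high or low array is partly a property of the grouping.

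The same members also varied together among the exposed arrays. Cyfluthrin replicate 1 was the highest exposed array at 30 of the 34, against 10.8% of tested probes, and cyfluthrin replicate 7 the lowest at 22, against 6.75%. Control replicate 1 was the lowest control at 18 of the 34, against 13.8% of tested probes. The control SD was larger than the exposed SD at 28 of the 34, where 37.3% of tested probes had that order. The median SD was 0.81 over 7 controls, 0.61 over 6 controls without replicate 6, and 0.54 over 8 exposed arrays. Over the 23 measured on all controls these SDs were 0.74, 0.57 and 0.57, and the control SD was the larger at 18. Without control replicate 6 the 6 controls averaged -3.14 ± 0.50 (SD) over the 34, beside an SD of 0.50 over all 8 exposed arrays. That control was left out after its values were seen and no exposed array was left out, so nothing is read from the equal spread.

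Few other probes varied between arrays as these 34 did. Of the 34, 28 had an r of at least 0.8 with the mean of the others, and the lowest was 0.57. Of 7102 other tested probes with all values, 0 reached 0.8, and the nearest was contig 5457 at 0.796, with a difference between exposed and control arrays of -0.22. There were 7 at 0.7 or more, 0 of them members, and 2 had an r under -0.8. The likeness was measured on deviations from the group means over 15 arrays, so it does not use the difference between exposed and control arrays. It does use the correlations that formed the group, so these counts describe the group and do not test it. The 34 also varied more, with median SDs of 0.81 over controls and 0.54 over exposed arrays. Over all tested probes these were 0.24 and 0.28.

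Some members had neighbouring probe numbers in the array design. Of the 65 members, 14 formed 10 pairs within 10 numbers of each other in the same design set, and 8 of the 10 pairs lay within the 34. Probes 4102, 4103 and 4105, on contigs 4735, 4879 and 5659, had pairwise r of 0.96 to 0.98. Probes 4941, 4944 and 4950, on contigs 3691, 5370 and 3155, had r of 0.50 to 0.74, and probes 1035 and 1040, on contigs 4071 and 2512, had r of 0.72. The eighth pair was that of contigs 7650 and 2743, probes 2953 and 2963 of another design set, with r of 0.992. The r of 4 of the 8 pairs was below the median of 0.76 over all pairs of the 34. Over all tested probes of the design set that holds these 8 probes, 4.28% of next-number pairs had an r above 0.8, against 0.715% of pairs that lay 100 tested probes apart. In the other 2 design sets the shares were 0.952% against 0.685% and 0.476% against 0.80%. Whether probes with neighbouring numbers lie on related contigs was not tested, so the number of separate genes behind the 34 probes is not given here.

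The remaining 31 members formed small groups. A group of 6 (contigs 8482, 4088, 2157, 4126, 7271 and 4521) was higher in exposed arrays by 2.17-fold to 5.45-fold at the 5 that controls measured, and by at least 1.72-fold at contig 8482. In all 6 cyfluthrin replicate 1 was the highest exposed array, by a mean of 1.01 over the other 7, as in the 34, but control replicate 6 was the highest control in 1 of the 6. Contig 4126 (CUST_2623_PI425439775) had controls that ran from 5.26 over 5.44 to 5.72 and exposed arrays from 6.32 over 6.70 to 7.71, without overlap. The means of 5.48 ± 0.19 and 6.79 ± 0.45 (SD, n = 7 and 8) give a difference of 1.31 ± 0.18 (SE), or 2.49-fold, and 2.21-fold against 8 controls. On contig 4521 (CUST_3326_PI425439380), 2.17-fold higher, the controls ran from 2.58 over 2.79 to 3.04 and the exposed arrays from 3.33 over 3.71 to 5.15. Cyfluthrin replicate 1 held the value of 5.15, and the next exposed array was at 4.41.

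A group of 5 (contigs 4431, 6446, 4391, 6510 and 6566) went the other way in that array. Cyfluthrin replicate 1 had a mean level of -0.34 over these 5, the lowest of the exposed arrays, and the folds lay between 2.23 and 5.98. Their highest exposed arrays were on average cyfluthrin replicates 8, 6 and 2, at 1.30, 1.24 and 1.09, and their highest controls were replicates 7, 2 and 1, at -0.26, -0.50 and -0.61. Contig 4431 (CUST_5815_PI425439380) had controls from 1.18 over 1.85 to 2.53 and exposed arrays from 3.77 over 4.40 to 5.39. Its groups did not overlap, and the difference of 2.58 ± 0.27 (SE) is 5.98-fold, or 4.83-fold against 8 controls. Contigs 6446 and 6566, in contrast, had controls above some exposed arrays. Their highest controls were at 0.08 and -2.31 and their lowest exposed arrays at -1.05 and -3.97.

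The last of the groups were smaller. The 4 members on contigs 7866, 2433, 2349 and 5753 were 2.06-fold to 3.52-fold higher, and cyfluthrin replicate 1 stood at a mean level of -2.13 over these 4, the lowest of the exposed arrays. The 3 on contigs 5924, 2886 and 222 were 2.12-fold to 4.84-fold higher. The last 13 members were in groups of 1 or 2 and had a median pairwise r of 0.04.

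Some members of the last 13 were steady within each group. Contig 1240 (CUST_2670_PI425439380) ran from 1.14 over 1.20 to 1.90 in controls and from 3.05 over 3.40 to 3.84 in exposed arrays. The groups were 1.15 apart at their nearest, which was wider than the range within either of them. The means of 1.33 ± 0.28 and 3.40 ± 0.29 (SD, n = 7 and 8) differ by 2.07 ± 0.15 (SE), or 4.21-fold, and by 3.58-fold against 8 controls. Contig 2633 (CUST_190_PI425439775), singled out after its values were seen, had the smallest errors, with controls from 0.32 to 0.57 and exposed arrays from 2.30 to 2.81. Its means of 0.44 ± 0.09 and 2.53 ± 0.15 (SD, n = 7 and 8) differ by 2.09 ± 0.06 (SE), which is 4.26-fold. Control replicate 6 was the highest of the 7 controls there too, with the next at 0.50. Contig 2782 (CUST_3877_PI425439380) lay between -4.46 and -4.18 on all 8 exposed arrays, but no control measured it, so its spread among controls is unknown. These are weak signals, and its fitted difference of 2.26 became 0.39 with the offset of 50.

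At the lower end, the smallest differences inside the threshold were 1.04 at contigs 5374, 5753 and 2489. Contig 5374 (CUST_9_PI425439771) ran from 0.90 over 1.32 to 1.66 in controls and from 2.08 over 2.38 to 2.56 in exposed arrays. Contig 5753 (CUST_5906_PI425439380) ran from -4.76 over -4.48 to -4.28 in controls and from -3.86 over -3.45 to -3.10 in exposed arrays. Neither had overlapping groups. Contig 2489 (CUST_2560_PI425439775) ran from -5.82 over -5.00 to -4.81 in controls and from -4.59 over -4.07 to -2.86 in exposed arrays, where cyfluthrin replicate 6 was far above the others. Just outside the threshold stood contigs 7585, 4495 and 2997, with differences of 0.98, 0.97 and 0.95 and all 8 exposed arrays above the control median. A further 2 detected probes differed by at least 2-fold but were left out because some exposed arrays were not above the control median, contig 2854 (1.73, 6 of 8 arrays) and contig 8400 (1.06, 7 of 8). Another 11 met every criterion except detection.

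The rule did not use the array labelled control replicate 3, so that array's levels were not fixed by it. The members were, however, chosen with earlier results of these data known, so the counts below describe that array and do not test it. The array lay above all 7 other controls at 65 of the 65 members, against 24.1% of all tested probes. At 54 it lay within the range of the 8 exposed arrays, at 10 above the highest of them and at 1 below the lowest, while 84.7% of tested probes lay within that range. The exception was contig 5374, at 2.02 against a lowest exposed array of 2.08. Expressed as a share of the difference between the other controls and the exposed mean, its position had a median of 110.0%, from 71.1% to 165%. Over all tested probes it exceeded the other 7 controls by a median of 0.07.

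The median share was 109.9% over the 34 and 110.4% over the 31, and at contig 3983 the array stood at -0.16, above all 8 exposed arrays, the highest of which was at -1.03. Over all tested probes its median absolute distance from cyfluthrin replicate 3 was 0.12, and from the other 14 arrays 0.22 to 0.35. Averaged over the 65 members, the absolute distance of its level from that of cyfluthrin replicate 3 was 0.20 and from cyfluthrin replicate 4 0.32. The other 6 exposed arrays were 0.35 to 0.81 away and the 7 controls 2.04 to 3.37. Cyfluthrin replicate 3 was the nearest exposed array at 28 of the 65, against 27.5% of tested probes. How this array came to carry these levels was not tested.

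**Figure D4:**
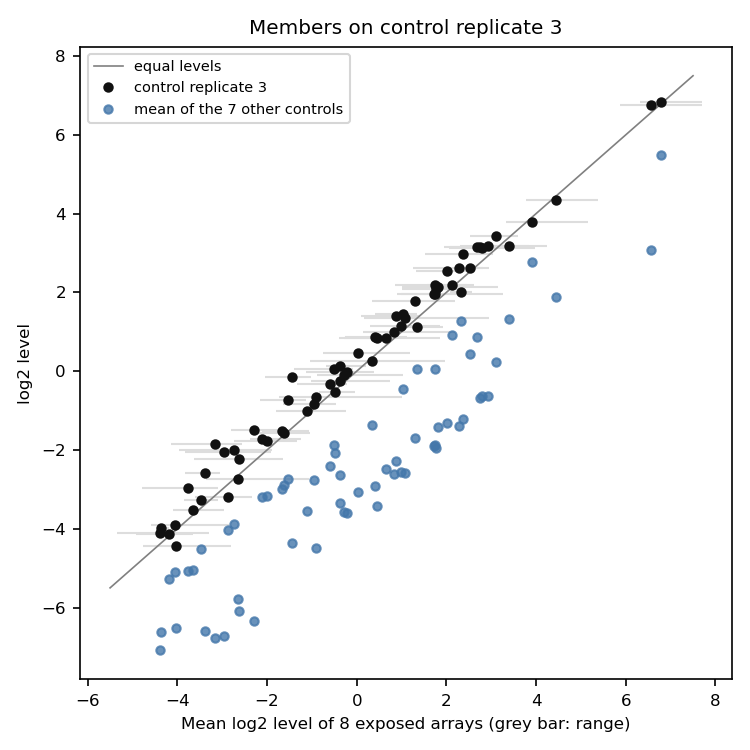
Log2 level of each of the 65 members (vertical axis) on the array labelled control replicate 3 (black) and as the mean of the other 7 controls (blue), against the mean of the 8 exposed arrays (horizontal axis), whose range is the grey bar. The black points follow the line of equal levels, and the grey bars of 54 members cross it, which puts the black point within the exposed range, while the blue points lie below the line.

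The arrays lay on 2 slides with 4 controls and 4 exposed arrays each. The median difference of the 65 members was 2.67 within slide 1 and 3.01 within slide 2 without the array labelled control replicate 3, or 2.16 with it. These are pieces of the difference that chose the members, so nothing is read from their common sign. The difference between slides was not used by the rule, and limma's test of it called 0 of the 65 with 15 arrays and 0 with 16 arrays, where 0% of all tested probes were called and the smallest adjusted p among members was 0.9999 with 15 arrays. Before adjustment, 2 members had a p under 0.05 with 15 arrays (1.92% of all tested probes) and 0 with 16. They were contig 4431, with a difference of 1.90 in slide 1 and 3.38 in slide 2 (limma, unadjusted p = 0.00166), and contig 7866, with 1.51 and 2.13 (limma, unadjusted p = 0.0452). The median standard error of such a difference was 0.58 with 15 arrays, which limits how small a difference between slides could be found.

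How large the differences were depended on the treatment of weak signals. With quantile normalisation and in the authors' deposited log2 table the median difference was 2.68 in each, and all 65 members kept a difference of at least 1. With an offset of 50 intensity units before the logarithm the median was 1.32, or 2.50-fold, and 43 of the 65 reached 1. All 65 stayed above 0, from 0.31 to 3.42. Among the 34 co-varying members the median was 2.35 with the offset and 27 reached 1, and among the other 31 it was 1.07 and 16 reached 1. Duplicate spots of a probe differed by a median of 0.10 at the 52 members with 2 spots, and by 0.10 over all tested probes.

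**Figure D5:**
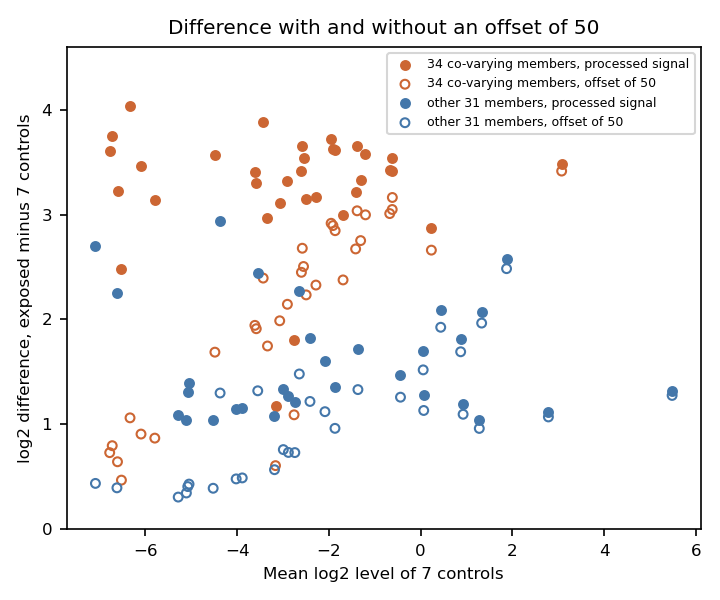
Difference between 8 exposed arrays and 7 controls on the log2 scale (vertical axis) against the mean level of the 7 controls (horizontal axis) for the 34 co-varying members (orange) and the other 31 (blue). Filled circles use the processed signal and open circles the same signal plus 50 intensity units. The distance between them tends to be larger at low control levels, without a steady order. It is 4.04 against 1.06 at contig 6676 and 3.48 against 3.42 at contig 6094.

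The mirror image of the rule kept 62 transcripts, at least 2-fold lower in the mean of exposed amphipods and below the control median on all 8 exposed arrays. Their median difference was -1.21 and the lowest -2.71, beside a median of 2.70 and a highest of 4.04 among the raised members. Their median pairwise r was 0.19 and their largest co-varying group held 20. Control replicate 6 stood a median of 14.9% of the way to the exposed mean among them, against 36.2% over all 65 raised members, and control replicate 7 was the lowest control at 35 of the 62, against 14.7% of tested probes. The array labelled control replicate 3 stood at 114% of the way among them, beside 110.0% among the raised members. Since each set was chosen for its direction and size on these same arrays, no test of these contrasts was made.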

How the data were processed

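Spot intensity of 16 arrays with 1 colour (Cy3) was taken from the deposited scanner files, for which the file headers name Agilent Feature Extraction 11.5.1.1 and the submitters' processing notes name 9.1. This intensity had its background subtracted within each array, per the file headers, with no scaling between arrays. A second table of log2 values was deposited by the authors with its scale not given in the sources used here. It matched quantile-normalised log2 intensity centred on each probe's median (r 0.9998 to 1.00 per array, slope 1.00). By column, in the order of the replicate numbers, the medians were -0.0048, -0.015, 0.0044, 0.0016, 0.043, -0.035, -0.0065 and -0.021 in the 8 control columns and -0.0079, 0.021, 0.0062, 0.034, 0.011, -0.017, 0.036 and -0.030 in the 8 cyfluthrin columns.

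Of 15208 spots on each array, 10 to 52 had a non-uniformity or population outlier mark and were dropped, 336 over all 16 arrays. The log2 values were set relative to the 75th percentile of the non-control spots of their array and averaged per probe. Detection on an array required the mark for well above background at 50% or more of a probe's spots. The 23 missing values of a probe on an array include 0 of a member. Treatment labels gave the groups and titles the replicate numbers. Two-sided linear models were run in R 4.3.3 with limma 3.58.1, with Benjamini-Hochberg adjustment over all tested probes, on 7179 probes with 16 arrays and 7151 with 15, and was tested on simulated data. Normexp (offset 50) used each spot's median pixel intensity, since the files hold no mean signal. p-values measure only the spread between these extracts.

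The members and lists were chosen with earlier results of these data known. The rule named the 10 members with the largest difference measured on all 15 arrays, the 5 largest of all, the 5 with the strongest exposed signal, the 3 smallest, the 3 probes just outside the threshold, the member whose level on the array labelled control replicate 3 lay farthest below the exposed arrays, and members that 0 of 7 controls measured. Other contigs are named where a small group or count is described, and were chosen after their values were seen. Gene lists could not be used, because the files do not pair contigs with genes. Same-numbered arrays of both groups deviated together in 5 of 8 pairs (r over 0.1, from -0.19 to 0.52, median 0.26). The labels do not name pairs, and only the fit with the replicate number as a block used the numbers. Whether equal numbers mark a shared origin was not tested. Figures were drawn with matplotlib 3.10.9.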

Additional observations from a re-analysis of the deposited data

Results flagged for a closer look

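Single arrays were compared with the rest of their group of 8 in 57 sets of values, and 19 sets held an array far from the other 7 by Dixon's ratio. Chance gives about 5% of independent sets, and these sets overlap and were chosen from the same data, so the count is no test. In 16 of the 19 it was the array labelled control replicate 3. Over all 65 members that array averaged 0.30 (nearest control -1.74), and over the 31 members outside the large co-varying group -0.18 (nearest -1.86). The remaining 14 were single members: it stood at 1.35 on contig 4735 (nearest control -1.54), 1.97 on contig 4879 (nearest -0.67), 6.75 on contig 6094 (nearest 4.26) and -1.49 on contig 6676 (nearest -5.01). It stood at -2.06 on contig 2512 (nearest -4.94), -1.85 on contig 5370 (nearest -5.12), -2.58 on contig 3155 (nearest -5.77), -4.10 on contig 8482 (nearest -6.63) and -3.98 on contig 2782 (nearest -6.12). At contigs 4126, 4431 and 4521 its levels were 6.84, 4.33 and 3.78, with the nearest controls at 5.72, 2.53 and 3.04. At contigs 1240 and 5753 its levels were 3.18 and -3.27, with the nearest controls at 1.90 and -4.28.

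The other 3 were exposed arrays. Cyfluthrin replicate 1 stood at 2.95 on contig 4735, with the nearest exposed array at 1.42, and at 7.70 on contig 6094, with the nearest at 6.74. Cyfluthrin replicate 6 stood at -2.86 on contig 2489, with the nearest at -3.90. Among the 16 file headers, the spike-in slope of the array labelled control replicate 3 was 0, and the others gave 0.948 to 1.04.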

How the results depend on the processing

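The rule kept 65 probes, but 39 with normexp, 42 with normexp on an array-wide median background and 43 with the offset of 50, all of them among the 65. The median difference of 2.70 became 1.24, 1.26 and 1.32 in these settings, and 2.33 with the array labelled control replicate 3 kept. It was 3.01 in slide 2 alone without that array, and 2.63 to 2.84 without single arrays. With that array kept the rule gave 58 probes, 56 of them among the 65, and without control replicates 3 and 6 it gave 65, 63 of them shared. Over all tested probes limma called 620 with 16 arrays and 151 with normexp (53.6% of them rising, against 40%). It called 494 with normexp on the median background, 544 with the offset and 139 in slide 1 alone. In slide 2 alone it called 0 (limma, 696 at an unadjusted p under 0.05), with the array labelled control replicate 3 counted among the controls. Without single arrays the count was 388 to 1063: 405, 388, 407 and 413 without control replicates 1 and 8 and cyfluthrin replicates 5 and 7, and 1063 without control replicate 3. With the replicate number as a block 365 were called, against 620 without it. Own-number partners were the best correlated for 6 of 16 arrays, each with 8 candidates in the other group. The array labelled control replicate 3 was included there, and no level expected by chance was computed. As the labels do not name pairs, the main fit left the numbers out, and the members' differences were not refitted with the block. The slide interaction gave 0 calls in every setting run (limma, 110 to 137 at an unadjusted p under 0.05). The difference of each of 24 named members kept its sign under quantile normalisation, normexp, the offset, the authors' table and with control replicate 3 kept. That sign was part of the rule, and the sizes were not kept. Their differences ran from 1.04 to 4.04 in the main setting, from 0.13 to 3.44 with normexp and from 0.34 to 3.42 with the offset. Normexp on the median background, leaving out control replicate 6, and the thresholds for grouping members were chosen after seeing the data. Weak control signals limit every fold at members that few controls measured.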
